A study of Mus musculus with 8 samples.

Results

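The genes described here form the oxygen-sensing pathway that depends on iron. They are the prolyl hydroxylase genes Egln1, Egln2 and Egln3, the asparaginyl hydroxylase gene Hif1an, the transcription factor genes Hif1a and Epas1, the ubiquitin ligase adaptor gene Vhl, and the target genes Vegfa and Pdk1. They were chosen by symbol, and all 9 were found among the 15864 genes of the deposited mouse liver table and among the 14664 genes that were tested. Whole-liver RNA was sequenced in 5 knockout (KO) samples labelled Alb-cre Mfrn1-/- Mfrn2 -/- and in 3 wild-type (WT) samples described as age-matched controls. Mfrn1 (Slc25a37) and Mfrn2 (Slc25a28) encode the mitoferrins, carriers that bring iron into mitochondria. Alb-cre expresses Cre recombinase under the albumin promoter, which is active in hepatocytes. The series describes the loss of both mitoferrins as specific to hepatocytes, and the labels do not say which of the alleles depends on Cre. Which liver cells lost which gene was not tested. All mice were fed standard chow. Sex, age and whether the controls carried the transgene or floxed alleles are not stated in the labels. Samples are numbered as replicates, and nothing in the labels says that each came from its own animal. The p-values thus cover only the spread among these 8 libraries, which may be technical.

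The hydroxylases of this pathway use molecular oxygen, 2-oxoglutarate and ferrous iron. EGLN enzymes hydroxylate prolines of the HIF alpha subunits HIF-1α (Hif1a) and HIF-2α (Epas1), and the VHL protein binds the hydroxylated subunits and directs them to the proteasome. HIF1AN, also called FIH, hydroxylates an asparagine and so blocks the recruitment of coactivators. When oxygen or iron is scarce the subunits persist and raise the transcription of targets such as Vegfa, a growth factor for blood vessels, and Pdk1, a kinase that slows the entry of pyruvate into mitochondria. The subunits are controlled largely as proteins, which were not measured here.

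Iron also reaches the pathway through RNA. The 5′ untranslated region of the Epas1 mRNA is known to carry an iron-responsive element, a hairpin to which iron regulatory protein 1 binds when cellular iron is low, repressing translation. The core of such an element has a bulged C, a stem and a loop that starts with CAGTG in DNA letters. The motif CNNNNNCAGTGN was searched on the transcript strand of all GENCODE M21 basic protein-coding transcripts with an annotated 5′ untranslated region, without a demand for pairing of the stem. It occurred in 2250 of 20871 genes, or 10.8%, and in 3 of the 9 genes described here. The 26 bases around each match are shown because Epas1 is also the gene with the largest difference in RNA level between the groups, with the loop bases in capitals.
Epas1: tacaatcctcggCAGTGtcctgagac
Hif1a: cgccgtcgcgggCAGTGtctagccag
Vegfa: cgtgtgcgcagaCAGTGctccagccg

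On mm10 (GRCm38) the Epas1 stretch is chr17:86753768-86753793 on the plus strand. It begins at base 69 of the 583 bases of the 5′ untranslated region of transcript Epas1-201. It lies before the start of Epas1 in the deposited table, 86753907, although inside the GENCODE M21 gene, which starts at 86753700. The Hif1a stretch is chr12:73908048-73908073 on the plus strand, shared by transcripts Hif1a-201 and Hif1a-203. The Vegfa stretch is chr17:46031500-46031525 on the minus strand of Vegfa-201. A match describes letters only, and the Hif1a and Vegfa matches are given without a claim that they fold or bind protein.

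The 9 genes differed widely in level. FPKM values, which the authors deposited and which are scaled to library depth and gene length, allow levels to be compared between genes. Averaged over all 8 libraries, Vegfa was highest at 29.3 FPKM, followed by Pdk1 at 23.6, Epas1 at 23.4, Egln2 at 20.1 and Hif1a at 13.4 FPKM. Egln1 at 7.47, Egln3 at 5.49, Vhl at 4.34 and Hif1an at 4.29 FPKM were lower. Egln2 exceeded Hif1a, and Hif1a exceeded Egln1, in all 8 libraries, with ranges that did not overlap. Vegfa exceeded Pdk1 in 7 of 8 libraries, and Egln1 exceeded Egln3 in 7 of 8. The other neighbours in this order could not be separated, since Pdk1 exceeded Epas1 in 4 of 8 libraries, Epas1 exceeded Egln2 in 5, Egln3 exceeded Vhl in 5 and Vhl exceeded Hif1an in 5.

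**Figure D1:**
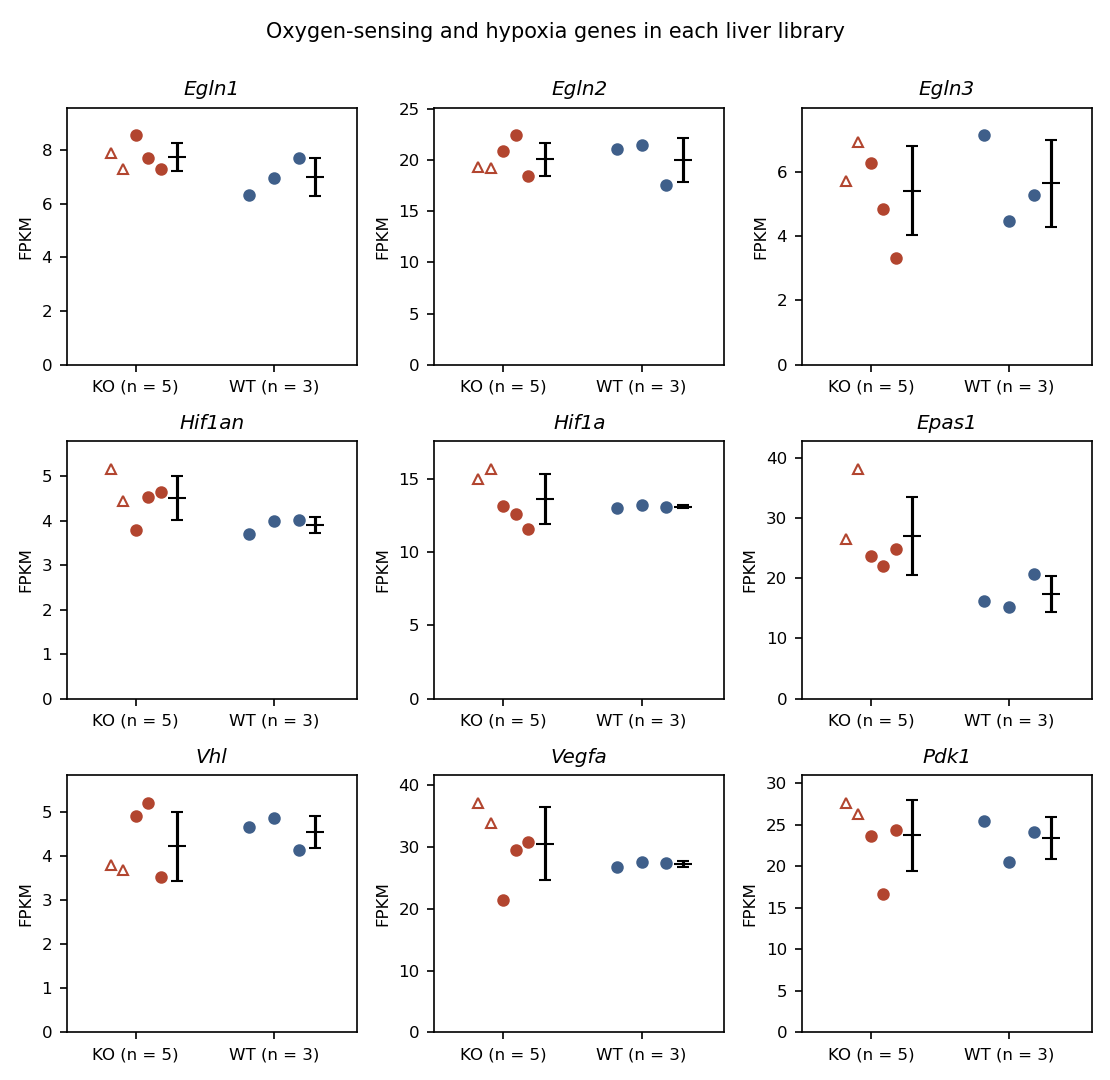
FPKM of each gene in each library, KO on the left and WT on the right, with the black bar at the mean ± SD of each group. Open triangles are KO replicates 1 and 2, filled circles are all other libraries, and Epas1 is the only gene whose 5 KO values all lie above the 3 WT values.

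Between KO and WT livers, Epas1 differed most of the 9 genes. Epas1 was 1.55-fold higher in KO livers. Its adjusted p passed 0.05 by DESeq2 and in the authors' deposited table, for which the processing notes also name DESeq2. It did not pass by limma-voom or by edgeR's quasi-likelihood test, the main test here. None of the other 8 genes passed by any of these. At an adjusted p under 0.05, edgeR called 0 of the 9 genes, against a background of 0.109% of all 14664 genes (16 genes), and DESeq2 called 1 of the 9, against 1.62% of the genes it gave an adjusted p. The limma-voom test called 0 of the 9. At the same threshold the authors' deposited values called 1 of the 9, against 131 genes higher and 104 lower among 15864. At an unadjusted p under 0.05 edgeR counted 1 of the 9 genes and 1518 of all genes, or 10.4%. A count of 1 in 9 is thus near the share over all genes. Fold changes were positive for 7 of the 9 genes and negative for 2. Their median log2 fold change was 0.05, against -0.00 over all tested genes, of which 49.2% were positive.

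**Figure D2:**
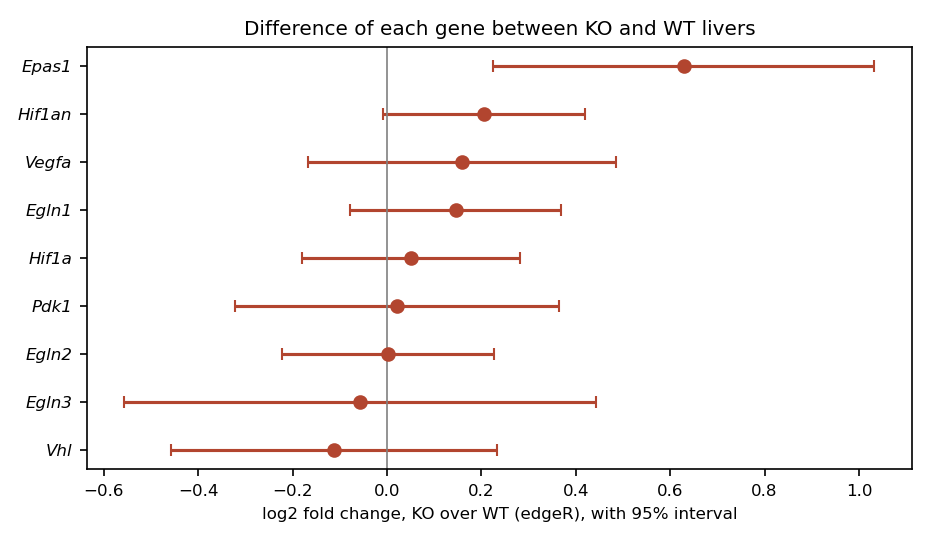
Log2 fold change of each gene, KO over WT, from edgeR on all 8 libraries, with bars for the 95% interval. The interval of Epas1 runs from 0.22 to 1.03, and those of the other 8 genes include 0.

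The deleted genes were checked first. Slc25a28 stood at 0.753, 0.731, 0.592, 0.888 and 0.662 CPM in KO replicates 1 to 5, against 18.1, 16.6 and 16.6 CPM in WT replicates 1 to 3 (CPM, counts scaled to library size with TMM factors). In whole liver, KO samples held 4.24% of the WT level (edgeR, log2 fold change -4.56, adjusted p = 1.92e-07). Slc25a37 stood at 10.6, 8.74, 5.76, 8.15 and 8.35 CPM in KO livers, against 17.4, 12.9 and 23.0 CPM in WT livers. KO samples held 46.8% of the WT level, with a log2 fold change of -1.09 (adjusted p = 0.104 by edgeR, DESeq2 adjusted p = 0.000337). Library totals were 24600340 to 31887401 counts in KO and 35484499 to 43072524 counts in WT livers. KO replicates 1 and 2 stood apart in clock genes: the clock output gene Dbp was at 69.3 and 54.5 CPM there, against 1.76 to 2.41 CPM in KO replicates 3 to 5 and 1.23 to 2.93 CPM in WT livers. Title numbers begin with 85 for KO replicates 1 to 3 and with 82 for the other 5 samples, and what those numbers mark is not stated. The hepatocyte markers, led by Alb, Ttr and Apoa1, summed to 102698 to 116203 CPM in KO and 105376 to 109858 CPM in WT livers.

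Egln1 encodes PHD2, the main prolyl hydroxylase acting on HIF-1α in most tissues. The gene (ENSMUSG00000031987, chr8:124908596-124949254, minus strand) was at 27.5, 25.1, 31.0, 26.9 and 25.8 CPM in KO replicates 1 to 5, against 21.7, 25.0 and 27.3 CPM in WT replicates 1 to 3. KO replicates 1 and 3 were above all WT livers, and the other 3 lay within the WT range. Means were 27.3 ± 2.30 CPM in KO livers (SD, n = 5) and 24.7 ± 2.797 CPM in WT livers (SD, n = 3). For Egln1, edgeR gave a log2 fold change of 0.15 ± 0.0995 (SE; 95% interval -0.08 to 0.37; edgeR adjusted p = 0.647).

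Egln2 encodes PHD1, and was the most abundant of the 3 prolyl hydroxylase genes. It (ENSMUSG00000058709, chr7:27158658-27166802, minus strand) was at 53.8, 52.6, 60.5, 62.4 and 51.8 CPM in KO replicates 1 to 5, against 57.8, 61.2 and 49.5 CPM in WT replicates 1 to 3. The groups overlapped over nearly their whole range. Both means were 56.2 CPM, with an SD of 4.86 in KO livers (n = 5) and 6.04 in WT livers (n = 3). KO over WT, Egln2 had a log2 fold change of 0.00 ± 0.1003 (SE; 95% interval -0.22 to 0.23; edgeR adjusted p = 0.997).

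Egln3 encodes PHD3, whose gene is itself a HIF target. It (ENSMUSG00000035105, chr12:54178981-54203860, minus strand) was at 15.1, 18.0, 17.3, 12.8 and 8.89 CPM in KO replicates 1 to 5, against 18.6, 12.2 and 14.2 CPM in WT replicates 1 to 3. KO replicate 5 was the lowest library and WT replicate 1 the highest. Means were 14.4 ± 3.68 CPM in KO livers (SD, n = 5) and 14.96 ± 3.27 CPM in WT livers (SD, n = 3). The log2 fold change was -0.06 ± 0.223 (SE; 95% interval -0.56 to 0.44; edgeR adjusted p = 0.953), the widest interval of the 9 genes.

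Taken per length, the 3 prolyl hydroxylase genes summed to 33.2 ± 2.61 FPKM in KO livers (SD, n = 5) and 32.7 ± 2.02 FPKM in WT livers (SD, n = 3). Egln2 made up 60.5 ± 3.05% of that sum in KO livers and 61.2 ± 3.85% in WT livers. Egln1 held 23.4 ± 1.40% in KO and 21.6 ± 3.495% in WT livers, and Egln3 held 16.2 ± 3.57% in KO and 17.2 ± 3.51% in WT livers. The order Egln2, Egln1, Egln3 held in every library but WT replicate 1, where Egln3 was above Egln1.

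Hif1an is the remaining oxygen sensor. It (ENSMUSG00000036450, chr19:44562850-44576274, plus strand) was at 33.9, 28.8, 25.8, 29.7 and 30.8 CPM in KO replicates 1 to 5, against 23.9, 26.9 and 26.8 CPM in WT replicates 1 to 3. Of the KO livers, 4 were above every WT liver, and KO replicate 3 lay between the WT values. Means were 29.8 ± 2.95 CPM in KO livers (SD, n = 5) and 25.9 ± 1.69 CPM in WT livers (SD, n = 3). For Hif1an, edgeR gave a log2 fold change of 0.20 ± 0.0956 (SE; 95% interval -0.01 to 0.42; edgeR adjusted p = 0.492), with an unadjusted p of 0.0584 by edgeR's quasi-likelihood test.

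Hif1an lies 0.899 Mb from the deleted gene Slc25a28 on chromosome 19. Of the 119 tested genes that start within 5 Mb of Slc25a28, the deleted gene aside, edgeR called 0, DESeq2 called 4 and limma-voom called 0. Over all genes, edgeR called 0.109% of those tested and DESeq2 called 1.62% of those it gave an adjusted p. At an unadjusted p under 0.05 edgeR counted 20 of them, or 16.8%, against 10.4% of all tested genes. Their median log2 fold change was 0.01, and Hif1an ranked 21st among them by p. The part of the alleles flanking the deletion in the value of Hif1an was not tested.

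Hif1a (ENSMUSG00000021109, chr12:73901375-73947530, plus strand) encodes HIF-1α, the subunit tied to glycolytic genes. It was at 87.8, 90.4, 80.2, 73.8 and 68.5 CPM in KO replicates 1 to 5, against 75.1, 79.5 and 77.5 CPM in WT replicates 1 to 3. The 3 WT livers lay close together, with KO replicates 1 to 3 above them and KO replicates 4 and 5 below them. Means were 80.2 ± 9.20 CPM in KO livers (SD, n = 5) and 77.4 ± 2.23 CPM in WT livers (SD, n = 3). KO over WT, Hif1a had a log2 fold change of 0.05 ± 0.103 (SE; 95% interval -0.18 to 0.28; edgeR adjusted p = 0.900).

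Epas1 (ENSMUSG00000024140, chr17:86753907-86833410, plus strand) encodes HIF-2α, which in liver is known for control of erythropoietin, iron transport and lipid genes and which is also abundant in endothelial cells. It was at 140 CPM in KO replicate 1, 198 in replicate 2, 130 in replicate 3, 116 in replicate 4 and 133 in replicate 5, against 83.9, 83.0 and 111 CPM in WT replicates 1 to 3. Every KO liver was above every WT liver, with KO replicate 2 far above the other KO livers and KO replicate 4 close to WT replicate 3. On the FPKM scale the KO livers stood at 26.5, 38.2, 23.7, 22.0 and 24.8, against 16.2, 15.3 and 20.8 FPKM in the WT livers. Means were 143 ± 31.9 CPM in KO livers (SD, n = 5) and 92.7 ± 16.0 CPM in WT livers (SD, n = 3). It was the only 1 of the 9 genes with all KO livers above all WT livers, an order found in 3.2% of all tested genes.

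The log2 fold change of Epas1 was 0.63 ± 0.181 (SE; 95% interval 0.22 to 1.03), a fold of 1.55 with an interval of 1.17 to 2.05. Its unadjusted p by edgeR was 0.0062, rank 329 of 14664 genes, and its adjusted p was 0.276. An exact two-sided permutation test of log2 CPM gave p = 0.0179, the smallest that 5 against 3 samples allow. DESeq2 gave a log2 fold change of 0.64 with an adjusted p of 0.0456, and limma-voom an adjusted p of 0.242. The authors' deposited table gives Epas1 a log2 fold change of 0.51 and an adjusted p of 0.0492, and gives the other 8 genes adjusted p-values of 0.546 to 0.995. The call therefore rested on the choice of test. DESeq2 was not refitted without single libraries. In GENCODE M21 another gene on the same strand shares 1379 bases with the Epas1 span, and it has no row in the deposited table.

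Epas1 was also examined without the libraries that stand apart. With KO replicates 3 to 5 alone against the WT livers, its log2 fold change was 0.45 (edgeR adjusted p = 0.520). Among samples whose titles begin with 82, 2 KO and 3 WT, it was 0.43 (edgeR adjusted p = 0.509). Both selections drop KO livers and keep all WT livers, so the order of the remaining livers carries nothing further.

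**Figure D3:**
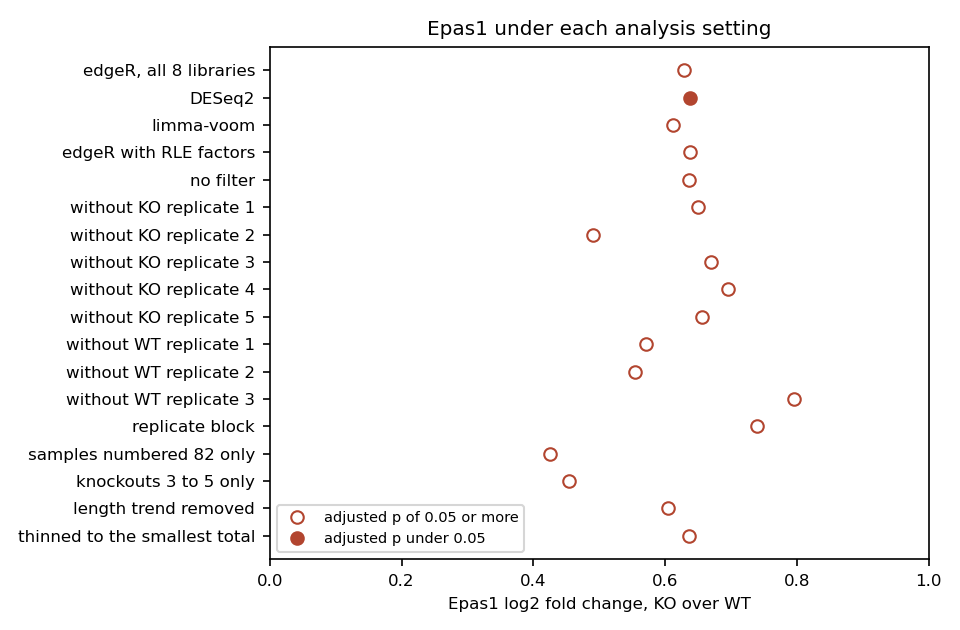
Log2 fold change of Epas1, KO over WT, under each analysis setting, with the edgeR result on all 8 libraries at the top. All values lie between 0.43 and 0.80, and the filled point, DESeq2, is the only setting with an adjusted p under 0.05.

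Epas1 RNA in whole liver can come from hepatocytes and from endothelial cells, and in bulk RNA a change in the number of cells of a type cannot be told apart from a change in RNA per cell. The 12 endothelial markers, among them Pecam1, Cdh5 and Stab2, summed to 657 to 891 CPM in KO livers and 673 to 797 CPM in WT livers. Of these 12 genes, 6 had a positive and 6 a negative fold change. On the log2 scale their median was 0.03 with a range of -0.18 to 0.19, and none was at 0 in any library. All 12 values were below that of Epas1. By edgeR, DESeq2 and limma-voom 0 of the 12 were called, and 0 had an unadjusted p under 0.05.

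The balance between the HIF alpha genes differed with the values of Epas1. The ratio of Epas1 to Hif1a FPKM was 1.77, 2.43, 1.80, 1.74 and 2.15 in KO replicates 1 to 5, against 1.24, 1.16 and 1.59 in WT replicates 1 to 3. All KO ratios were above all WT ratios. Their means were 1.98 ± 0.304 in KO livers (SD, n = 5) and 1.33 ± 0.231 in WT livers (SD, n = 3). The ratio was formed after the levels had been seen and is given as a description.

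**Figure D4:**
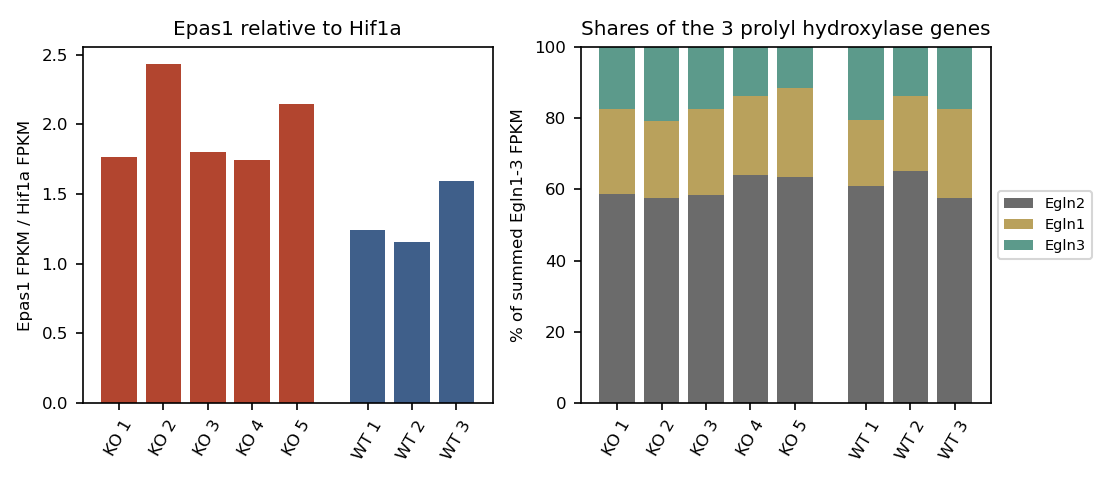
Left, the ratio of Epas1 to Hif1a FPKM in each library, KO before WT. Right, the share of each prolyl hydroxylase gene in the summed FPKM of Egln1, Egln2 and Egln3, where Egln2 takes 57.5 to 65.2% in the 8 libraries.

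Vhl (ENSMUSG00000033933, chr6:113623959-113631633, plus strand), the adaptor through which hydroxylated HIF alpha is degraded, was at 11.3, 10.8, 15.2, 15.5 and 10.6 CPM in KO replicates 1 to 5, against 13.6, 14.8 and 12.5 CPM in WT replicates 1 to 3. KO replicates 1, 2 and 5 were below all WT livers, and KO replicates 3 and 4 were above them. Means were 12.7 ± 2.45 CPM in KO livers (SD, n = 5) and 13.7 ± 1.17 CPM in WT livers (SD, n = 3). The log2 fold change was -0.11 ± 0.154 (SE; 95% interval -0.46 to 0.23; edgeR adjusted p = 0.839).

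The libraries in which Vhl was lowest are also those in which long genes stood higher. Spearman's rho between gene length and the deviation of a library from the mean over libraries, across genes, was 0.171, 0.218 and 0.216 in KO replicates 1, 2 and 5, and -0.261 to -0.0428 in the other 5 libraries. Genes are not independent replicates, and the part of this trend in the Vhl values was not tested beyond a fit with the trend removed, in which the log2 fold change of Vhl was -0.09 and that of Epas1 was 0.60.

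Vegfa (ENSMUSG00000023951, chr17:46016993-46032377, minus strand), a HIF target, was at 158, 142, 94.7, 126 and 132 CPM in KO replicates 1 to 5, against 112, 121 and 118 CPM in WT replicates 1 to 3. The WT livers lay close together, with 4 KO livers above all of them and KO replicate 3 below all of them. Means were 131 ± 23.4 CPM in KO livers (SD, n = 5) and 117 ± 4.57 CPM in WT livers (SD, n = 3). For Vegfa, edgeR gave a log2 fold change of 0.16 ± 0.146 (SE; 95% interval -0.17 to 0.49; edgeR adjusted p = 0.732).

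Pdk1 (ENSMUSG00000006494, chr2:71873224-71903858, plus strand), a HIF-1 target that inhibits pyruvate dehydrogenase, was at 213 CPM in KO replicate 1, 199.8 in replicate 2, 189.7 in replicate 3, 129 in replicate 4 and 189.9 in replicate 5, against 193, 163 and 189 CPM in WT replicates 1 to 3. KO replicate 4 was the lowest library and KO replicates 1 and 2 were the highest. Means were 184 ± 32.5 CPM in KO livers (SD, n = 5) and 182 ± 16.4 CPM in WT livers (SD, n = 3). KO over WT, Pdk1 had a log2 fold change of 0.02 ± 0.154 (SE; 95% interval -0.32 to 0.36; edgeR adjusted p = 0.977).

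Spread among KO livers was wider than among WT livers for several of these genes. The coefficient of variation of Hif1a CPM was 11.5% in KO livers and 2.89% in WT livers. That of Vegfa CPM was 17.9% in KO livers and 3.91% in WT livers. On the FPKM scale the contrast was larger, at 12.5% and 0.803% for Hif1a and 19.3% and 1.78% for Vegfa. Egln1 and Egln2 went the other way in CPM. Egln1 was at 8.45% in KO and 11.3% in WT livers, and Egln2 at 8.65% in KO and 10.8% in WT livers. With 3 WT livers these spreads are themselves poorly known, and no test of them was made. Epas1, Hif1an, Hif1a, Vegfa and Pdk1 were all highest in KO replicate 1 or 2, the livers with high Dbp. The part of the shifted clock genes in these values was not tested. Without those livers the log2 fold changes were 0.45 for Epas1, 0.16 for Hif1an, -0.05 for Hif1a, 0.02 for Vegfa and -0.09 for Pdk1.

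The wider pathway was read from lists of further genes. Across 6 lists edgeR, DESeq2 and limma-voom each called 0 genes in either direction. Counts at an unadjusted p under 0.05 are given for each list by edgeR, where 10.4% of all tested genes had such a p. Among 19 HIF partners and degradation factors, 13 fold changes were positive and 6 negative, the median was 0.11 on the log2 scale, and 3 had an unadjusted p under 0.05. Arnt, the shared beta subunit of the HIF factors, was at 33.6 ± 3.76 CPM in KO livers and 31.6 ± 4.85 CPM in WT livers. The smallest p belonged to Os9, a lectin of the endoplasmic reticulum also reported to bind HIF-1α and prolyl hydroxylases. It averaged 164 ± 7.17 CPM in KO livers (SD, n = 5) and 205 ± 26.7 CPM in WT livers (SD, n = 3), with all KO livers below all WT livers (edgeR log2 fold change -0.32, adjusted p = 0.305). The share of all tested genes in that order was not counted.

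Among 18 glycolytic HIF targets, 7 fold changes were positive and 11 negative, the median was -0.02, and 2 had an unadjusted p under 0.05. Some of these genes had low values, with Gapdh at 3.32 CPM in KO livers and 3.36 CPM in WT livers. Pgk1 was at 10.4 CPM in KO livers and 10.5 CPM in WT livers. The reason for these low values was not tested. Aldoc, an aldolase isoform, had the smallest p. It averaged 7.99 ± 3.44 CPM in KO livers (SD, n = 5) and 15.3 ± 1.55 CPM in WT livers (SD, n = 3), with all KO livers below all WT livers (edgeR log2 fold change -0.93 ± 0.282 SE, adjusted p = 0.305). The other was Gpi1, glucose-6-phosphate isomerase, named after its values were seen. It averaged 95.7 ± 21.03 CPM in KO livers (SD, n = 5) and 69.9 ± 3.33 CPM in WT livers (SD, n = 3), with all KO livers above all WT livers (edgeR log2 fold change 0.45, adjusted p = 0.395). The order of Gpi1 was found in 3.2% of all tested genes, and the share with the order of Aldoc was not counted. Ldha, lactate dehydrogenase, was at 482 ± 158 CPM in KO livers and 473 ± 20.9 CPM in WT livers. Slc2a1, the glucose transporter GLUT1, was at 6.22 ± 1.03 CPM in KO livers and 7.22 ± 0.213 CPM in WT livers.

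Of the 34 other HIF targets that are listed, 32 passed the filter on low counts, with 21 positive and 11 negative fold changes, a median of 0.05 and 0 genes at an unadjusted p under 0.05. Ero1l, an oxidase of the endoplasmic reticulum, had the smallest p, at 18.6 ± 2.43 CPM in KO livers and 15.8 ± 0.619 CPM in WT livers (edgeR log2 fold change 0.23, adjusted p = 0.519). The iron transport genes of this list, and Epo, were named for their role. Tfrc, the transferrin receptor, averaged 40.2 ± 21.8 CPM in KO livers and 26.4 ± 9.74 CPM in WT livers (edgeR log2 fold change 0.60 ± 0.406 SE, adjusted p = 0.636). Slc40a1, the iron exporter ferroportin, averaged 297 ± 51.3 CPM in KO livers and 323 ± 22.5 CPM in WT livers. Slc11a2, the iron transporter DMT1, averaged 33.1 ± 5.42 CPM in KO livers and 31.7 ± 1.86 CPM in WT livers. Trf, transferrin, averaged 24723 ± 1933 CPM in KO livers and 23901 ± 3654 CPM in WT livers (edgeR log2 fold change 0.05). Epo, erythropoietin, was low, at 1.01 ± 0.260 CPM in KO livers and 1.24 ± 0.549 CPM in WT livers (edgeR log2 fold change -0.30, adjusted p = 0.781). In each of these genes the groups overlapped.

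Around Pdk1, 13 genes of pyruvate dehydrogenase and its regulators had 9 positive and 4 negative fold changes, a median of 0.05 and 0 at an unadjusted p under 0.05. Pdk2, another kinase of the complex, had the smallest p, at 22.2 ± 4.72 CPM in KO livers and 17.5 ± 1.66 CPM in WT livers (edgeR log2 fold change 0.34, adjusted p = 0.506). Around Vegfa, 8 VEGF ligands and receptors had 5 positive and 3 negative fold changes and a median of 0.01, with 1 at an unadjusted p under 0.05. That gene was Flt1, a VEGF receptor, at 20.04 ± 2.81 CPM in KO livers and 15.8 ± 1.44 CPM in WT livers (edgeR log2 fold change 0.35, adjusted p = 0.402). Kdr, the main signalling receptor for VEGF-A, was at 101 ± 6.90 CPM in KO livers and 106 ± 12.1 CPM in WT livers.

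Many other enzymes share the need of these sensors for iron and 2-oxoglutarate. Among 50 of their genes, including collagen hydroxylases, histone and nucleic acid demethylases, 23 fold changes were positive and 27 negative, the median was -0.01 and 2 had an unadjusted p under 0.05. P4htm of this list is also counted among the HIF partners, and Kdm3a, P4ha1 and P4ha2 among the other HIF targets. The RNA demethylase gene Fto had the smallest p, at 31.1 ± 3.56 CPM in KO livers and 24.8 ± 1.96 CPM in WT livers (edgeR log2 fold change 0.33, adjusted p = 0.344).

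**Figure D5:**
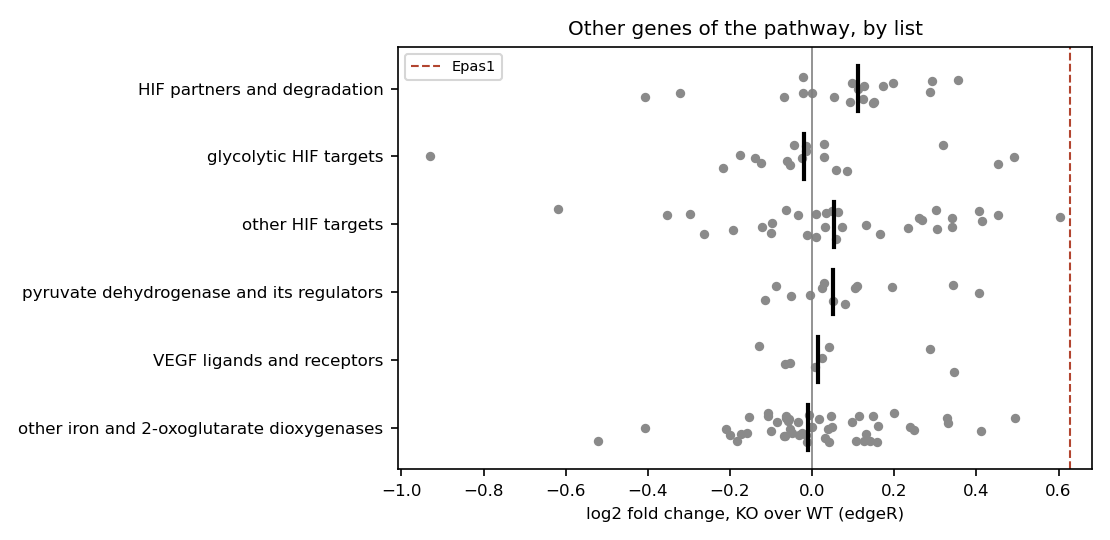
Log2 fold change, KO over WT, of every tested gene of 6 pathway lists, with a black bar at each list's median and a dashed line at the value of Epas1. The medians lie between -0.02 and 0.11, and the points spread from -0.93 to 0.60.

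Other cell types were checked with marker lists, since HIF genes respond in many cells. Neutrophil markers had lower summed levels in KO livers. The 5 in the table summed to 1.01 to 3.79 CPM in KO livers and 3.94 to 12.5 CPM in WT livers, without overlap. The share of all tested genes with all KO livers below all WT livers was not counted. Of the 5, 3 averaged under 1 CPM and 1 was at 0 in at least 1 library. All 3 that could be tested had negative fold changes with a median of -1.29. By edgeR all 3 had an unadjusted p under 0.05, against 10.4% of all tested genes. At an adjusted p under 0.05, edgeR called 0 of the 3 and DESeq2 called 1, S100a9. DESeq2 called 1.62% of all genes that it gave an adjusted p. The summed levels of the Kupffer cell, stellate cell, cholangiocyte, lymphocyte, erythroid, pericentral and periportal lists overlapped between the groups. In the stellate list DESeq2 called 1 gene, Rgs5, which averaged 62.6 ± 2.41 CPM in KO livers and 89.2 ± 11.5 CPM in WT livers (log2 fold change -0.51, edgeR adjusted p = 0.0930, DESeq2 adjusted p = 0.00052). The 11 stellate markers had 4 positive and 7 negative fold changes, with a median of -0.01 and a range of -0.51 to 0.52 on the log2 scale. Pericentral markers, from the zone with the lowest oxygen, summed to 7492 to 8789 CPM in KO livers and 8619 to 9597 CPM in WT livers, with 3 positive and 7 negative fold changes. Only KO replicate 1, at 8789 CPM, was above the lowest WT liver. The median of the pericentral list was -0.24 on the log2 scale, and 2 of its 10 genes had an unadjusted p under 0.05 by edgeR. The part of any of these cell types or zones in the values of the 9 genes was not tested.

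For each of the 9 genes, the tested genes with the most similar profile were found by the mean absolute difference of standardised log2 CPM over the 8 libraries, in SD units, among 13006 genes. Epas1 was closest to Ttc7 at 0.169 and Cabin1 at 0.176. Hif1an was closest to Arhgap17 at 0.147 and Tlk1 at 0.189, and Hif1a to Zfp202 at 0.230 and Setdb2 at 0.239. Egln1 was closest to Fmo2 at 0.178 and Slc16a13 at 0.240, Egln2 to Lmna at 0.187 and Pawr at 0.208, and Egln3 to Psat1 at 0.206 and Deb1 at 0.224. Vhl was closest to Otub1 at 0.167 and Capza2 at 0.171, Vegfa to Zfp952 at 0.189 and Smad5 at 0.190, and Pdk1 to Mtrf1l at 0.215 and Egf at 0.251. None of these genes was in the pathway lists. Some stood low, such as Psat1 at 0.284 to 0.869 CPM and Egf at 0.727 to 0.993 CPM over the 8 libraries. A search of 13006 genes always returns a closest gene, and how close a match would be by chance was not tested.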

How the data were processed

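The authors deposited 1 table with 15864 genes of mouse liver. Per the file headers, the deposited table holds raw counts of reads per gene, which are whole numbers. Per the submitters' processing notes, reads were handled with Novoalign 2.8, build mm10 and DESeq2, and per the labels' protocols libraries came from ribosome-depleted total RNA with a stranded kit. How reads were assigned to genes, and by strand or not, is not given in the sources used here, so reads of antisense or overlapping genes may be shared. No gene in the deposited table overlaps the 9 genes. In GENCODE M21, genes without a row in that table share bases with Hif1a (Gm15283 on the opposite and Gm49321 on the same strand), with Epas1 on the same strand, and with the end of Egln2 (Cyp2t4, 11 bases, opposite strand). Per the file headers the deposited table also holds FPKM, regularised log2 values, the authors' log2 fold change, a score that is a log10 transform of the adjusted p, and other columns of gene annotation. FPKM were used for levels between genes and entered no test, and the regularised log2 values were not used. Starts in the table count from 0 and are given here from 1, since 11363 of 15626 identifiers found in GENCODE M21 then match. Lines without a gene were left out.

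Genes were filtered with filterByExpr (min.count 10, min.total.count 15) and counts scaled by TMM. KO was compared with WT over all 14664 genes with edgeR 4.0.16 (quasi-likelihood test, Benjamini-Hochberg adjustment, threshold 0.05) in R 4.3.3. DESeq2 1.42.0, limma 3.58.1 and the settings in the closing section were alternatives, and the scripts were tested on simulated data. Exact permutation tests used log2 CPM with a prior count of 2. Totals of 24600340 to 43072524 counts gave the 9 genes 282 to 8505 counts per library, and the common biological coefficient of variation over all genes was 0.191. Figures were drawn with matplotlib 3.10.9.

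The 9 genes and all lists were chosen with earlier results of these data known. Named genes were the 9 genes, the deleted genes, the gene with the smallest p in each pathway list, and the 2 genes most like each of the 9; further genes were named for their role, or after their values were seen where the text says so or a DESeq2 call is given.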

Additional observations from a re-analysis of the deposited data

Results flagged for a closer look

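In 2 of the 11 groups of 5 KO values that were examined, 1 library lay far from the others by Dixon's test. Chance gives this in about 1 in 20 groups. Epas1 in KO replicate 2 was the highest of the 5 KO livers at 198 CPM, with a gap of 0.713 of the KO range to the next liver against a critical value of 0.71. Pdk1 in KO replicate 4 was the lowest of the 5 KO livers at 129 CPM, with a gap of 0.720 of the range. Without KO replicate 2 the log2 fold change of Epas1 was 0.49, and without KO replicate 4 that of Pdk1 was 0.13.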

How the results depend on the processing

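Of 153 fold changes of the 9 genes under 17 alternatives, 136 kept their direction and side of the threshold, 16 changed sign and 1 passed the threshold. Epas1 stayed positive in all, at 0.43 to 0.80 (adjusted p 0.0456 to 0.684; 0.49 to 0.80 with single livers left out), and passed by DESeq2 alone, at 0.64. DESeq2 called 257 genes and 1 of the 9, edgeR 16 and 0. Leaving out single livers moved the edgeR count between 8 and 30: it was 8 without KO replicate 1 or WT replicate 3, 9 without KO replicate 2 or 5 and 30 without KO replicate 3. Slc25a37 passed by DESeq2 at -1.09. The changes of sign were in genes whose log2 fold change lay between -0.11 and 0.05 on all 8 libraries, and their cause was not tested. With KO replicates 3 to 5 only, Hif1a was -0.051, Vhl 0.015 and Pdk1 -0.090. With samples numbered 82 only, Hif1a was -0.12 and Pdk1 -0.18. With the length trend removed Pdk1 was -0.051. With single livers left out, Egln2 ran from -0.068 to 0.067, Egln3 from -0.19 to 0.14 and Pdk1 from -0.052 to 0.13. With the replicate number as a block, Egln2 was -0.011, Egln3 0.18 and Epas1 0.74 (edgeR adjusted p = 0.402). Deviations of same-numbered KO and WT livers correlated at 0.08, 0.02 and -0.06 across genes. Those of differently numbered livers correlated at -0.21 to 0.12. Such correlations cannot decide whether the numbers pair the samples, since paired livers need not deviate together. With counts thinned to the smallest total no call among the 9 genes changed, and the intervals of the 8 genes other than Epas1 leave room for differences up to the bounds given beside each.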
